A study of Arabidopsis thaliana with 6 samples.

Results

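Some Arabidopsis thaliana transcripts were low in red light and stayed near the dark wild-type level in dark-grown seedlings that lack 4 PIF genes. The set described here holds 38 of 7234 named genes. A gene belongs to it when its mean over 3 red light arrays was at or below -1 and its mean over 3 pifQ arrays was above -0.25, both as log2 ratios over dark-grown Col-0. Of 259 genes that met the red light condition, 42 also met the pifQ condition, and 4 of those (CYP71B19, MSRB9, BHLH101 and AT2G44370) were left out because they fall in families or a stretch of chromosome 2 that the rule sets aside. The members were thus chosen by both group means, and so by their difference, which are given as a description with no test.

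The samples were whole Col-0 seedlings kept for 60 h in continuous red light of 24 μmol m-2 s-1 (3 arrays) and whole seedlings of the pif3 pif4 pil5 pil6 mutant, called pifQ, kept for 60 h in darkness (3 arrays). Every array set its sample in Cy5 against 60 h dark-grown Col-0 in Cy3, with no dye swap. All seedlings, dark Col-0 included, had 1% sucrose in the medium, 3 days of cold and a 6 h white light pulse at 100 μmol m-2 s-1 to start germination. The replicates of a group were grown and harvested separately, per the labels. The labels leave the number of dark Col-0 extracts unstated, so the spread between arrays may leave out some of the spread of dark Col-0. In whole seedlings, fewer cells of a type and less RNA per cell cannot be told apart.

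PIFs are bHLH transcription factors that accumulate in dark-grown seedlings and keep them in the elongated, pale form. Light-activated phytochromes bind PIFs and send them to degradation, so that a seedling without several PIFs takes on many traits of a light-grown one in darkness. Light also acts through other routes, among them cryptochromes, the COP1 and HY5 pair, the remaining PIFs, hormones and the sugars that photosynthesis makes.

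Red light arrays resembled each other more (r = 0.812 to 0.913 across named genes, which are not independent of each other) than pifQ arrays did (0.423 to 0.615). The pifQ replicate 3 correlated at 0.593 to 0.696 with the red light arrays and at 0.423 and 0.506 with the other pifQ arrays. With the red light arrays, pifQ replicate 1 correlated at 0.561 to 0.591 and replicate 2 at 0.453 to 0.546. Both thus also correlated more with each red light array than with pifQ replicate 3, and with each other at 0.615. No PIF gene that the mutant lacks has a named feature, so the genotype was not checked here. Ratios hold no level of a transcript, and the seedling identity was therefore not checked by markers. The base of the logarithm was taken as 2, on which each fold below rests.

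Across the 38 members, the red light mean ran from -2.83 to -1.01 with a median of -1.20, and the pifQ mean from -0.22 to 0.75 with a median of -0.11. The medians over all 7234 genes were -0.021 in red light and -0.042 in pifQ. Among the other 221 genes with a red light mean at or below -1 the medians were -1.33 in red light and -0.72 in pifQ. With limma and Benjamini-Hochberg adjustment over all genes, 38 of 38 members passed as lower in red light than in dark Col-0, where 19.0% of all genes did. In pifQ against dark Col-0, 0 passed as lower (7.04% of all genes) and 0 as higher (4.59%), and at an unadjusted p under 0.05 the members numbered 0 lower and 2 higher. In red light Col-0 against dark pifQ, 25 passed as lower, where 1.16% of all genes did, and 0 as higher, where 2.2% did. The 84 genes behind the 1.16% numbered 16 to 199 when 1 array was left out, 20 under quantile normalization and 246 with array weights. The rule used these contrasts, so nothing is read from the counts.

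**Figure D1:**
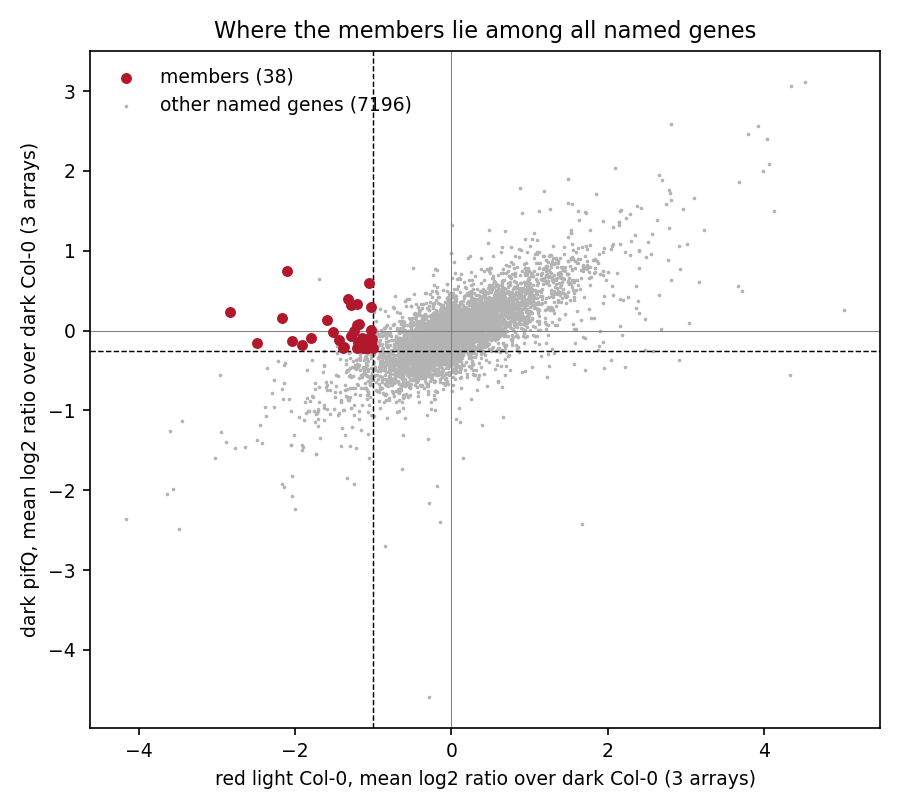
Each point is a named gene, with its mean log2 ratio over dark Col-0 in red light Col-0 on the x axis and in dark pifQ on the y axis (3 arrays each). Dashed lines mark -1 and -0.25, and the 38 members (red) lie in the upper left field. The other genes (grey) reach up to both lines, and the 4 genes left out by name or position lie inside the field.

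The edges of the set are crowded. At the red light threshold, the last members inside were AT4G31660 (-1.005), AT3G05155 (-1.02) and AT1G74770 (-1.02), and the nearest genes outside were AT1G16180 (-0.996), AT4G31080 (-0.988) and AT3G09020 (-0.984). At the pifQ threshold, AT5G01210, AT2G36220 and AT5G46040 (each -0.223) lay just inside, and AT1G29020 (-0.252), UGT76B1 (-0.262) and AT3G01190 (-0.264) just outside. When each array was left out in turn, 12 of the 38 members met the rule every time and 26 missed it at least once. Only 5 members had every red light array at or below -1 and every pifQ array above -0.25: AT3G02620, AT2G16005, AT1G66800, AT3G02610 and AT5G47980.

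**Figure D2:**
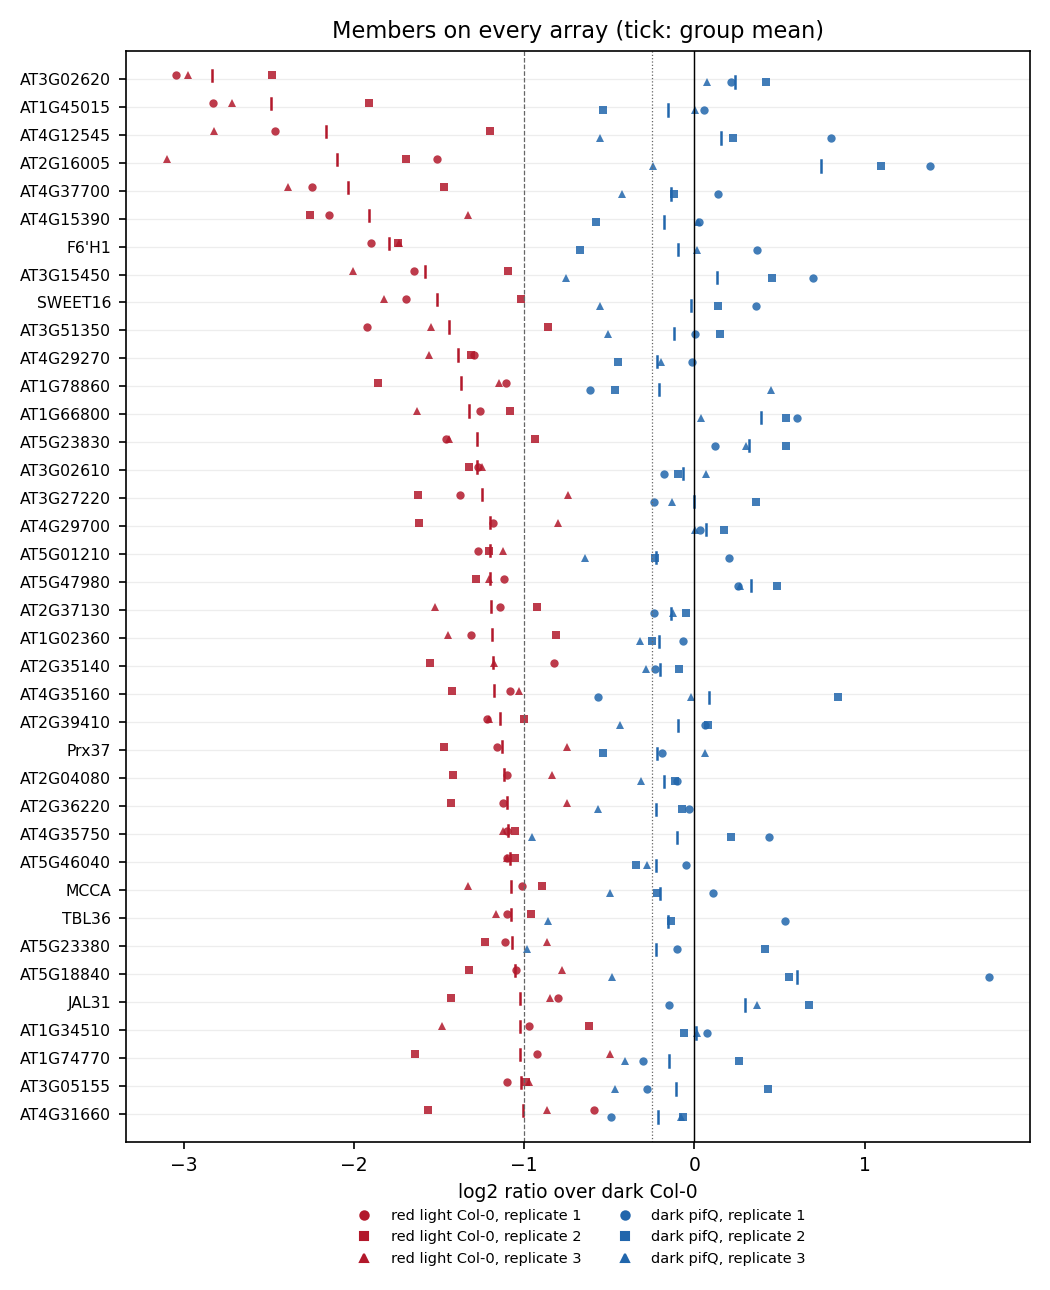
Log2 ratios over dark Col-0 on every array for the 38 members, ordered by red light mean, with red light Col-0 in red, dark pifQ in blue, a shape for each replicate and a tick at each group mean. In 37 members all red light points lie left of all pifQ points, while the pifQ points of many members straddle 0.

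In 37 of 38 members every red light array was below every pifQ array, a pattern shown by 10.6% of all genes. It follows in large part from the rule, and nothing is read from it. The exception was AT5G23380, with -1.11, -1.23 and -0.87 on red light arrays 1, 2 and 3 against -0.10, 0.42 and -0.98 on pifQ arrays 1, 2 and 3.

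Of the 38 members, 6 have a gene name in the annotation used here, and the other 32 are known by locus only and are given no function. SWEET16 encodes a sugar transporter of the vacuole membrane. Its log2 ratios were -1.69, -1.02 and -1.82 on the red light arrays, against 0.36, 0.14 and -0.56 on the pifQ arrays. The red light values were all lower than the pifQ values, and the pifQ values fell on both sides of 0 (means -1.51 ± 0.43 and -0.020 ± 0.48; errors are SD over 3 arrays here and below). The difference, red light minus pifQ, was -1.49.

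The measured relatives of SWEET16 were looked at after the members were known. SWEET genes encode carriers that move sugars across membranes, and 9 others have named features. In red light, 1 of the 9 fell (SWEET11) and 4 rose (SWEET1, SWEET13, SWEET17 and SAG29, also called SWEET15), while 4 did not pass. SWEET11, a plasma membrane sucrose exporter known from leaf phloem, had a log2 ratio of -0.78 ± 0.23 in red light (limma adjusted p = 0.00499) and of -0.24 ± 0.36 in pifQ (0.35). SWEET17, which carries fructose at the vacuole membrane as SWEET16 does sugars, had 0.47 ± 0.25 in red light (adjusted p = 0.0365) and 0.078 ± 0.32 in pifQ. The calls of SWEET17, SWEET13 and SAG29 ended without red light replicate 1, at an adjusted p of up to 0.211, 0.0657 and 0.186 over the alternatives. SWEET17's also ended without red light replicate 2 or 3, and SWEET13's without replicate 2. SWEET1 was the only one of the 9 that passed in pifQ, where it rose (log2 1.26 ± 0.17, adjusted p = 0.00616), a call that ended without pifQ replicate 1 (0.0518).

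MCCA encodes the biotin-carrying subunit of methylcrotonyl-CoA carboxylase, a mitochondrial enzyme of leucine breakdown. Its ratios were -1.01, -0.90 and -1.33 in red light, against 0.11, -0.22 and -0.49 in pifQ. All red light arrays were below all pifQ arrays, with means of -1.08 ± 0.22 and -0.20 ± 0.30. MCCA was the only member on a list of 4 measured genes of sugar starvation and dark induction, whose medians were -0.59 in red light and -0.25 in pifQ.

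That list also holds IVD, the dehydrogenase that acts before this carboxylase in leucine breakdown, and MCCB, the other carboxylase subunit. IVD fell in red light, with -0.83, -0.90 and -1.27 on the 3 arrays (mean -0.9997 ± 0.24, adjusted p = 0.000841), and had -0.22, -0.097 and -0.59 in pifQ (mean -0.30 ± 0.26, adjusted p = 0.192). It thus missed both thresholds of the rule by a small margin, and its call in red light held under every alternative tried. MCCB had -0.17 ± 0.078 in red light (adjusted p = 0.277) and -0.091 ± 0.19 in pifQ (0.631). SAG29 completes the list, with 0.69 ± 0.54 in red light and -0.35 ± 0.31 in pifQ.

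AT3G13610 carries the name F6'H1, the hydroxylase that acts on feruloyl-CoA in the making of the coumarin scopoletin. Its ratios were -1.90, -1.74 and -1.74 in red light, against 0.37, -0.67 and 0.013 in pifQ. The red light arrays were close together (-1.79 ± 0.093) and the pifQ arrays were not (-0.096 ± 0.53). In red light F6'H1 stood 3.47-fold below dark Col-0.

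TBL36 and Prx37 belong to gene families of the cell wall. TBL proteins, named after the trichome birefringence mutant, include enzymes that acetylate wall polysaccharides. TBL36 had -1.10, -0.96 and -1.17 in red light, against 0.53, -0.13 and -0.86 in pifQ. Its red light arrays lay close together (-1.08 ± 0.11), while its pifQ arrays were spread widely (-0.15 ± 0.70), with replicate 3 almost as low as the red light arrays.

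Of 13 other TBL genes with named features, 4 fell in red light (TBL38, TBL41, TBL39 and TBL19), 3 rose (TBL45, TBL15 and TBL26) and 6 did not pass. The same 4 that fell in red light also fell in pifQ. For TBL38 the values were -1.24 ± 0.13 in red light (adjusted p = 0.000114) and -0.72 ± 0.15 in pifQ (0.00788). For TBL41 they were -1.25 ± 0.32 in red light (0.00377) and -0.94 ± 0.69 in pifQ (0.0369). TBL15 stood the other way, at 1.57 ± 0.28 in red light (7.84e-05) and 0.019 ± 0.15 in pifQ (0.943). Without pifQ replicate 1 none of the 4 calls in pifQ passed, with adjusted p of up to 0.0549 for TBL38, 0.188 for TBL41, 0.121 for TBL39 and 0.134 for TBL19 over the alternatives. In red light the calls of TBL39, TBL19 and TBL26 ended without red light replicate 1, and also without replicate 2.

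**Figure D3:**
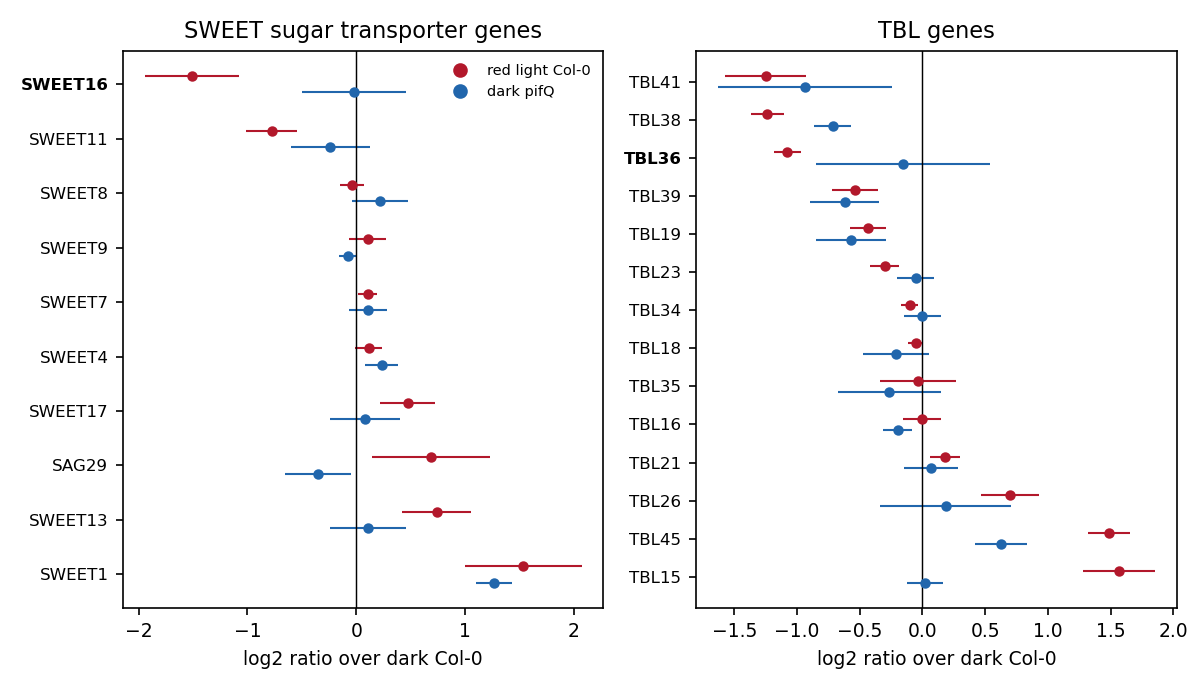
Mean log2 ratio over dark Col-0 ± SD (3 arrays) for the 10 measured SWEET genes (left) and 14 measured TBL genes (right), with red light Col-0 in red and dark pifQ in blue and the member in bold. SWEET16 has the lowest red light mean of its family, and TBL36 stands beside TBL41 and TBL38, whose pifQ means are below -0.7.

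Prx37 encodes a secreted class III peroxidase, an enzyme type that can cross-link or loosen walls. It had -1.16, -1.47 and -0.75 in red light, against -0.19, -0.54 and 0.062 in pifQ. Red light replicate 3 and pifQ replicate 2 were close to each other, and the group means were -1.13 ± 0.36 and -0.22 ± 0.30. Of 3 other measured genes that the annotation used here names as peroxidases, AT2G41480 and AT5G66390 fell in both groups. AT5G66390 had -1.60 ± 0.15 in red light (adjusted p = 3.53e-05) and -0.64 ± 0.13 in pifQ (0.0116, ending without pifQ replicate 2 at 0.0522), and its difference between red light and pifQ also passed (log2 -0.96, SE 0.16, adjusted p = 0.0177). AT2G41480 had -2.42 ± 0.30 and -1.41 ± 0.61, and its pifQ call ended without pifQ replicate 1 (0.054). AT3G50990 had 0.013 ± 0.090 in red light and -0.067 ± 0.12 in pifQ. Genes without such a name, members included, were not sorted by family, so any peroxidases among them are not counted here.

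JAL31 encodes a jacalin-related lectin, a carbohydrate-binding protein. Its ratios were -0.80, -1.43 and -0.85 in red light, against -0.15, 0.67 and 0.37 in pifQ. Every red light array was lower than every pifQ array, and 2 of the 3 pifQ arrays were above 0. The 1 other measured lectin gene of this name, JAL22, had 0.0038 ± 0.44 in red light (adjusted p = 0.992) and rose in pifQ with 1.54, 0.53 and 1.92 on the arrays (1.33 ± 0.72, adjusted p = 0.0147). That call ended without pifQ replicate 1 (0.0949). The red light minus pifQ differences were -1.32 for JAL31 and -1.33 for JAL22, and that of JAL22 did not pass (SE 0.36, limma adjusted p = 0.0914).

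Among the locus-only members, AT3G02620 stood farthest from its pifQ value. It had -3.04, -2.48 and -2.97 in red light, against 0.21, 0.42 and 0.076 in pifQ. It was low on every red light array and above 0 on every pifQ array, 7.12-fold below dark Col-0 in red light and 8.39-fold below pifQ. The neighbouring gene AT3G02610 is also a member, the only pair of members that are next to each other. AT3G02610 had -1.27, -1.32 and -1.25 in red light, against -0.18, -0.094 and 0.070 in pifQ, with the arrays of each group close together. The next gene along, AT3G02630, had -0.24 ± 0.22 in red light (adjusted p = 0.225) and -0.010 ± 0.31 in pifQ (0.975). Whether the probes of these neighbours tell them apart was not tested.

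AT2G16005 had -1.51, -1.69 and -3.10 in red light, against 1.38, 1.09 and -0.24 in pifQ. Replicate 3 was the lowest array in both groups, and the means were -2.10 ± 0.87 and 0.75 ± 0.87. This was the highest pifQ mean among the members. AT1G45015 had -2.83, -1.91 and -2.72 in red light, against 0.058, -0.54 and 0.0056 in pifQ. Its red light values were low throughout, and pifQ replicate 2 alone was clearly below 0.

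AT4G12545 had -2.47, -1.20 and -2.82 in red light, against 0.80, 0.23 and -0.55 in pifQ. The groups did not overlap, although red light replicate 2 and pifQ replicate 3 were the nearest to each other. AT4G37700 had -2.25, -1.47 and -2.39 in red light, against 0.14, -0.12 and -0.43 in pifQ. AT4G15390 had -2.15, -2.26 and -1.33 in red light, against 0.026, -0.58 and 0.020 in pifQ. In both genes the red light arrays were all below -1.3 and the pifQ mean was slightly negative (-0.14 and -0.18).

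AT3G15450 had -1.65, -1.09 and -2.01 in red light, against 0.69, 0.46 and -0.75 in pifQ. As in SWEET16, pifQ replicates 1 and 2 were above 0 and replicate 3 was below it, and red light replicate 2 was the highest of its group.

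In 6 members the pifQ mean reached 0.25 or more: AT2G16005, AT5G18840, AT1G66800, AT5G47980, AT5G23830 and JAL31. AT5G18840 had -1.05, -1.32 and -0.78 in red light, against 1.73, 0.56 and -0.48 in pifQ, a spread in pifQ (SD 1.11) larger than that of any other member. AT1G66800 had -1.26, -1.08 and -1.63 in red light, against 0.61, 0.54 and 0.039 in pifQ. All its pifQ arrays were above 0 and all its red light arrays below -1. AT5G23830 had -1.46, -0.93 and -1.44 in red light, against 0.12, 0.54 and 0.30 in pifQ, and AT5G47980 had -1.12, -1.29 and -1.20, against 0.26, 0.48 and 0.27. In both, every pifQ array was above 0, and AT5G47980 had small spreads in both groups (SD 0.084 in red light and 0.13 in pifQ).

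AT5G47980 lies in a stretch of chromosome 5 that holds genes of the thalianol pathway, a triterpene route whose enzymes are encoded together. Locus-only genes are given no function here, so whether AT5G47980 and AT5G47950 belong to the pathway themselves was not examined. The next genes along are CYP705A5 (thalian-diol desaturase), CYP708A2 (thalianol hydroxylase) and THAS1 (thalianol synthase), which make and modify thalianol and have no named feature here. On the other side, 3 places away, AT5G47950 fell in red light with -0.61, -0.52 and -0.79 (mean -0.64 ± 0.13, adjusted p = 0.00272) and had 0.14, -0.14 and 0.031 in pifQ (mean 0.012 ± 0.14, adjusted p = 0.961). Its red light call held under every alternative tried, and its difference between red light and pifQ did not pass (log2 -0.65, adjusted p = 0.0677). AT4G15390 likewise lies among triterpene genes. Within 5 places of it are BARS1 (baruol synthase), PEN1 (a triterpene synthase) and the P450 genes CYP705A2, CYP705A3, CYP705A4, CYP702A5 and CYP702A6, none of them with a named feature.

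Genes around the members were examined in annotation order, a choice made after the members were known. Within 5 protein-coding genes on either side, 97 other genes were measured. Of these, 20 (20.6%) passed as lower and 18 (18.6%) as higher in red light against dark Col-0, near the 19.0% and 18.8% of all genes. In pifQ 7 (7.22%) were lower and 5 (5.15%) higher. None of the 97 met both thresholds of the rule. Members were not counted among the 97, so this was largely fixed in advance and nothing is read from it. Leaving out red light replicate 1, 2 or 3 gave 10, 12 and 12 lower genes in red light (10.3%, 12.4% and 12.4%), beside 9.0%, 11.2% and 13.4% of all genes. Leaving out pifQ replicate 1, 2 or 3 gave 2, 2 and 3 lower genes in pifQ (2.06%, 2.06% and 3.09%), beside 1.88%, 2.46% and 4.87% of all genes. Without red light replicate 1 the pifQ count was 4 (4.12%), beside 3.66% of all genes.

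Of 17 measured genes directly next to a member, 5 (29.4%, beside 19.0% of all genes) passed as lower in red light: AT3G05150, AT4G29690, AT1G74780, AT4G37690 and AT3G05160. The call of AT4G37690 ended without each red light array, at an adjusted p of up to 0.122. Another 2 (11.8%, beside 18.8% of all genes) passed as higher. AT5G01200, next to AT5G01210, rose in red light (log2 0.60 ± 0.12, adjusted p = 0.00411) and had -0.24 ± 0.17 in pifQ, and its difference between red light and pifQ also passed (0.84, adjusted p = 0.029). AT2G35130, next to AT2G35140, rose in red light (0.77 ± 0.28, adjusted p = 0.00312) and had 0.18 ± 0.22 in pifQ. AT3G05150 and AT3G05160 flank the member AT3G05155. AT3G05150 fell in red light (-1.19, -1.28 and -1.58) and in pifQ (-0.60, -0.43 and -0.52), and its pifQ call, with an adjusted p of 0.0255, ended without any of the pifQ arrays, or without red light replicate 1, at up to 0.117. AT3G05155 itself had -1.10, -0.99 and -0.97 in red light, against -0.28, 0.43 and -0.47 in pifQ. AT3G05160 had -0.49 ± 0.048 in red light (adjusted p = 0.0374) and -0.16 ± 0.44 in pifQ. Its red light call ended without each red light array, without pifQ replicate 1 and under quantile normalization, at up to 0.139. The 3 genes in this row were thus all low in red light, by different amounts. Whether the probes of these genes, or of other neighbours described here, tell them apart was not tested.

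AT4G29690 lies next to the member AT4G29700. AT4G29690 had -0.85, -1.34 and -0.68 in red light (mean -0.96 ± 0.34, adjusted p = 0.0058), against -0.45, -0.25 and 0.52 in pifQ (mean -0.061 ± 0.51, adjusted p = 0.867). AT4G29700 had -1.19, -1.62 and -0.80 in red light, against 0.032, 0.18 and 0.0021 in pifQ. In both genes red light replicate 2 was the lowest array and replicate 3 the highest of the red light group. AT1G74780, next to AT1G74770, followed that order too, with -0.59, -0.95 and -0.37 in red light (adjusted p = 0.00571), and the member had -0.93, -1.64 and -0.50 in red light, against -0.30, 0.26 and -0.41 in pifQ. AT1G74770 was the only member with a red light array above -0.5, at -0.495.

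**Figure D4:**
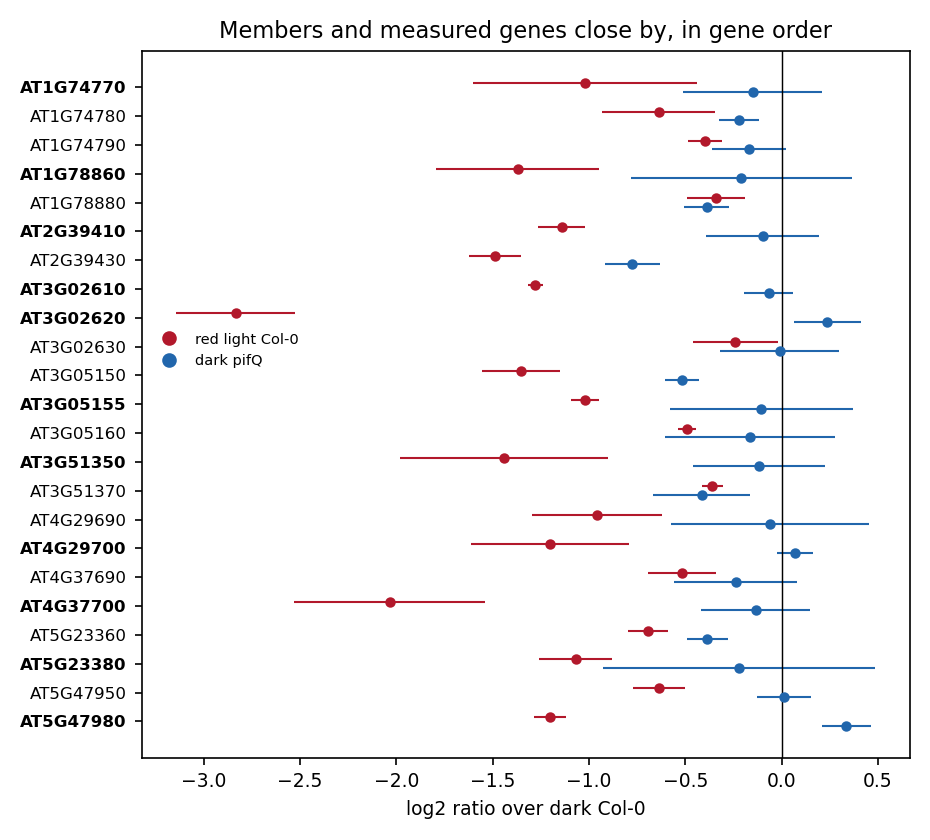
Mean log2 ratio over dark Col-0 ± SD (3 arrays) for members (bold) and measured genes up to 3 places away that passed as lower in red light, plus AT3G02630, in gene order; red light Col-0 is red and dark pifQ blue. AT4G29690 and AT5G47950 have pifQ means near 0, while AT3G05150 and AT2G39430 are below -0.5 in pifQ.

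The pifQ arrays did not agree on many members. All 3 were above 0 in 5 members and all below 0 in 8, and the other 25 had mixed signs. Among all 7234 genes these counts were 1246, 2029 and 3959. The rule used the pifQ mean, so nothing is read from the members' counts. In 4 members, and in 1269 of all 7234 genes, every pifQ array lay within 0.25 of 0. The 4 were AT3G02610, AT2G37130, AT4G29700 and AT1G34510. AT2G37130 had -1.14, -0.92 and -1.52 in red light, against -0.24, -0.048 and -0.13 in pifQ. AT1G34510 had -0.97, -0.62 and -1.49 in red light, against 0.076, -0.058 and 0.019 in pifQ, the smallest pifQ spread of all members (SD 0.067). For these 4 genes the pifQ level was near that of dark Col-0 on each array, and not only on average.

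At the other end, 15 members had at least 1 pifQ array at or below -0.5, as did 1808 of all 7234 genes. Over the members the median ratio was 0.029, 0.016 and -0.26 on pifQ replicates 1, 2 and 3. Replicate 3 was the lowest pifQ array in 22 of 38 members (57.9%), in 122 of the other 221 lowered genes (55.2%) and in 32.3% of all genes. It lay at least 0.5 below the mean of replicates 1 and 2 in 14 members (36.8%), in 63 other lowered genes (28.5%) and in 9.01% of all genes. Both shares were thus near each other in the members and in the other lowered genes, and no test of the difference was made.

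In 8 members replicates 1 and 2 were above 0 and replicate 3 below 0: AT2G16005, AT2G39410, AT3G15450, SWEET16, AT3G51350, AT4G12545, AT4G35750 and AT5G18840. Among all 7234 genes, 627 had this pattern. AT4G35750 had -1.10, -1.06 and -1.12 in red light, against 0.44, 0.21 and -0.95 in pifQ, so that pifQ replicate 3 nearly met the red light values. AT3G51350 had -1.92, -0.86 and -1.55 in red light, against 0.0038, 0.15 and -0.51 in pifQ. Without pifQ replicate 3, 55 genes met the rule, of which 34 were members of the set, and without replicate 1, 28 did, of which 25 were members. Without pifQ replicate 2 the numbers were 35 and 29. Whether the resemblance of replicate 3 to the red light arrays is linked to these values was not tested. Its part in the membership beyond these counts was not tested either.

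**Figure D5:**
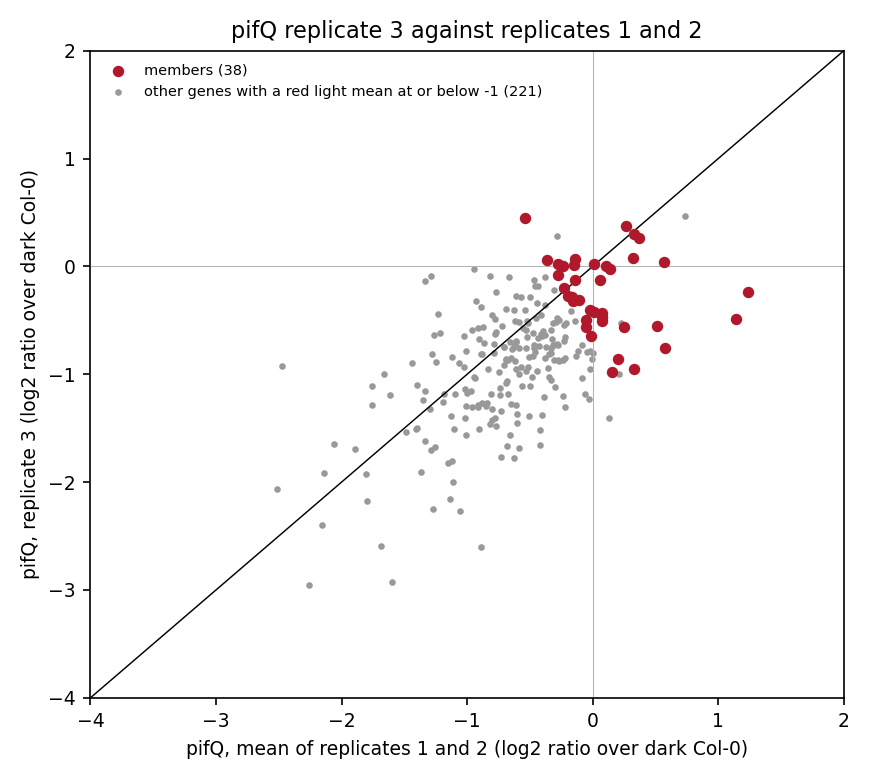
The log2 ratio over dark Col-0 on pifQ replicate 3 (y axis) against the mean of replicates 1 and 2 (x axis) for the 38 members (red) and the other 221 genes with a red light mean at or below -1 (grey), with a line of equality. Most points of both colours lie below the line, and a run of members with x near or above 0 reaches down to y = -0.98.

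Replicate 2 was the lowest red light array in 16 members (42.1%) and the highest in 17 (44.7%), beside 39.3% and 36.7% of all genes. It was highest in AT3G02620, AT1G45015, AT4G12545, SWEET16 and AT3G15450 among others, and lowest in AT4G15390, JAL31, Prx37 and AT5G18840. Of the 17 members with replicate 2 highest, 12 (70.6%) had pifQ replicate 3 lowest, beside 53 of 93 such genes (57.0%) among the other lowered genes and 32.6% among all genes. Of the other 21 members, 10 (47.6%) had it lowest, beside 53.9% and 32.1%. These shares are a description with no test. All 3 red light arrays were at or below -1 in 19 of 38 members and in 132 of the other 221 lowered genes.

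The other members are given by their means. AT4G29270 had means of -1.39 ± 0.15 in red light and -0.22 ± 0.22 in pifQ. AT1G78860 had -1.37 ± 0.42 and -0.21 ± 0.57, and was high on pifQ replicate 3 (0.45) where most members were low. AT3G27220 had -1.25 ± 0.45 and -0.0030 ± 0.32.

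AT5G01210 had red light and pifQ means of -1.20 ± 0.074 and -0.22 ± 0.42, and AT1G02360 had -1.19 ± 0.33 and -0.21 ± 0.13. AT2G35140 had -1.18 ± 0.36 in red light and -0.20 ± 0.10 in pifQ. AT4G35160 had -1.18 ± 0.21 and 0.087 ± 0.71, its pifQ arrays standing at -0.56, 0.85 and -0.021. In AT4G35160 the pifQ mean near 0 therefore averaged a low and a high array.

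AT2G39410 had -1.14 ± 0.12 in red light and -0.10 ± 0.29 in pifQ. AT2G39430, 3 places along from it, fell in both groups, at -1.49 ± 0.14 in red light and -0.77 ± 0.14 in pifQ (adjusted p = 0.00616). AT2G04080, the only member with 2 features, had -1.12 ± 0.29 and -0.18 ± 0.12. Its pifQ arrays were all below 0, as were those of AT2G36220 (red light -1.10 ± 0.34, pifQ -0.22 ± 0.30) and AT5G46040 (red light -1.09 ± 0.025, pifQ -0.22 ± 0.15). AT4G31660, the member nearest the red light threshold, had -0.59, -1.56 and -0.87 in red light, against -0.49, -0.068 and -0.081 in pifQ.

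Of 37 gene lists on hormones, cell walls, transporters, transcription factors, stress and cell types, 28 had at least 1 measured gene and 2 held a member, sugar starvation and dark induction (MCCA) and peroxidases (Prx37). Lists were matched by gene name or synonym, so the 32 members known by locus only could hardly be found on one. Counts of 0 members therefore do not show that a family is absent from the set. Cell wall loosening genes, meaning expansins, xyloglucan enzymes and pectin methylesterases, numbered 15, of which 5 had a red light mean at or below -1 and 0 were members. The 5 were PME61, XTH19, EXPA9, XTH33 and EXLA2, with pifQ means of -0.62, -0.73, -1.54, -0.97 and -0.99. Auxin genes numbered 8 and UGT genes 39, with 2 and 1 at or below -1 in red light and 0 members each. The list of CYP names held 15 genes, of which 3 are cyclophilins and 10 are CYP71B genes that the rule sets aside. Its lack of members follows largely from the rule, since CYP71B19 met both thresholds. The lists for light signalling, abscisic acid, arabinogalactan proteins, aquaporins, MYB factors, zinc fingers, root endodermis, shoot apex and seed storage had 0 measured genes. The root hair marker EXPA18 had -0.21 ± 0.41 in red light and 0.23 ± 0.13 in pifQ, and the guard cell marker FMA, also called FAMA, had 0.86 ± 0.054 in red light and 0.19 ± 0.47 in pifQ.

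By chromosome, the members numbered 7, 6, 10, 9 and 6 on chromosomes 1 to 5, against 26.8%, 14.9%, 19.9%, 14.8% and 23.6% of all named genes. Chromosomes 3 and 4 held 26.3% and 23.7% of the members. This is a description, and stretches on chromosome 2 were left out by the rule.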

How the data were processed

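Sample over dark Col-0 ratios of 6 arrays were deposited by the authors on a log scale, taken here as log2, 1 per feature. The submitters' processing notes name limma, without a version. Background correction, normalization and the base of the logarithm are not stated in the labels. Base 2 was taken from the range of the values. Of 45220 features, 7440 carry a gene name, and features of a gene were averaged (139 genes), giving 7234 genes. Locus names and gene order came from RefSeq tables, and no coordinates are used.

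limma 3.58.1 in R 4.3.3 was fitted to all 6 arrays with 1 coefficient per group and tested on simulated data first. Calls are Benjamini-Hochberg adjusted p under 0.05 over all genes. A ratio against 0 leaves out the spread of dark Col-0 as far as arrays shared a dark Col-0 extract, which the labels leave unstated. The number of arrays limits the precision, and intensities were not used here, so dim and saturated spots are unmarked. The members and gene lists were chosen with earlier results of these data known, and relatives and neighbouring genes after the members' values were seen. Array values are given for the 12 members with the lowest red light minus pifQ difference, for those with a pifQ mean of at least 0.25 and for those on a list. Others with array values were chosen after their values were seen. Promoter motifs were not analysed here. Alternatives were other scalings, other limma settings, and each array left out.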

Additional observations from a re-analysis of the deposited data

How the results depend on the processing

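Quantile normalization left 24 members, all of them among the 38, and asking every array to pass its threshold left 5. Leaving out 1 array gave 28 to 55 genes that met the rule. With all 38 members kept, calls numbered 37 to 38 lower in red light and 0 to 1 in pifQ without 1 array, and 1 in pifQ under quantile normalization. In red light against pifQ, 25 members passed as lower, 9 under quantile normalization, 14 with a replicate block and 8 to 33 without 1 array. Over all genes, 84 passed as lower in this contrast, 20 to 246 under alternatives that kept every array and 16 to 199 without 1 array. The rule used these contrasts, so nothing is read from the members' counts. Among the 97 genes around the members, 20 passed as lower in red light, and 41 with array weights (42.3%, beside 32.4% of all genes). Without 1 array they numbered 10 to 23, where 651 to 1477 of all 7234 genes passed. In pifQ 7 passed as lower, 3 when arrays were scaled to the same spread, 4 with the spread of each group's arrays alone and 2 to 6 without 1 array. Over all genes, 509 passed as lower in pifQ, 226 to 642 under alternatives that kept every array and 136 to 472 without 1 array. Same-numbered red light and pifQ arrays deviated from their group means with correlations of -0.176, -0.148 and -0.167 across genes. The replicate block joins those pairs by their number alone. Differently numbered pairs ran from -0.111 to 0.256, with positive values for red light 1 with pifQ 3 (0.2405), red light 2 with pifQ 1 (0.182) and red light 3 with pifQ 2 (0.256). A gene's deviations sum to 0 within each group, so negative values for some pairs bring positive values for others. Nothing is read from these signs. Whether arrays of both groups share a batch or a dark Col-0 extract was not tested. The cause of these changes was not tested. Signal over background was not available to these comparisons, and it sets how well low transcripts are measured.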

Other observations

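Of 37780 features without a gene name, 652 had a red light mean at or below -1, and 115 of those (17.6%) also had a pifQ mean above -0.25. Among 7440 named features, 43 of 263 (16.3%) did.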
